A study of Mus musculus with 24 samples.

Results

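Unpolarized macrophages (M0) grown from the bone marrow of mice that had survived sepsis were compared with macrophages polarized towards the M1 state in culture. The comparison asks which genes of the M1 state, above all hypoxia genes and monocyte-attracting chemokines, the post-sepsis M0 cultures share without having received an M1 stimulus. Its members are the 4 arrays labelled as post-sepsis M0 and the 4 arrays labelled as M1, 8 of the 24 mouse arrays in the series, and they were taken by their labels alone.

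All cultures came from marrow of C57BL/6 male mice aged 10 weeks and were kept for 7 days in RPMI medium with 10% fetal bovine serum and 20% supernatant of L929 cells, a fibroblast line that supplies the macrophage growth factor M-CSF. The post-sepsis M0 cultures came from mice 14 days after sepsis and received no further stimulus. The M1 cultures came from naive mice and received interferon-gamma at 50 ng/mL with lipopolysaccharide (LPS) at 10 ng/mL on day 3. Naive M0 cultures, from mice without sepsis and with no addition, and M2 cultures, from naive mice given interleukin-10 at 20 ng/mL on day 3, served as references, with 4 arrays each. Post-sepsis M0 and M1 therefore differ in the donor's history and in the stimulus together, and these cannot be told apart in the direct comparison. Per the design text, 2 experiments with 3 samples per group were run and the best 4 samples of each group were put on arrays. Since no label ties a sample to an experiment or an animal, the p-values measure the spread between chosen samples only.

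Interferon-gamma and LPS drive macrophages into a microbicidal program of nitric oxide, inflammatory cytokines, interferon-induced GTPases and antigen presentation, together with a switch towards glycolysis. Hypoxia-inducible factors (HIF), whose alpha subunits are marked for destruction by oxygen-sensing prolyl hydroxylases, raise glycolytic and mitochondrial-stress genes, and in macrophages LPS can do so too. The chemokines CCL2, CCL7 and CCL12 bind the receptor CCR2, which draws monocytes out of the marrow and into inflamed tissue.

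Each value below is the log2 of the background-subtracted intensity of 1 probe per gene, less the 75th percentile of its array, so 0 is that percentile, and levels of different genes cannot be set against each other. A gene was tested if its probe exceeded background clearly on 3 or more arrays of either group, and limma called 9103 of the 29448 such genes (30.9%) at an adjusted p under 0.05. Of these, 4818 (16.4%) were higher in post-sepsis M0 and 4285 (14.6%) in M1, and the median change over all genes tested was 0.16. For 7601 genes (25.8%) the 95% interval of the change lay within 2-fold, the rule used here to call a level close to M1. For 29.5% of the genes the groups did not overlap. The 75th percentile of the raw intensity ranged from 218 to 501 over the 8 arrays, without saturated spots. Precision is limited by the small number of arrays.

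The post-sepsis arrays did not form an even group. Correlations within the group ran from 0.889 to 0.985, against 0.959 to 0.992 among M1 arrays. Replicates 2 and 4, both on slide 3, lay above replicates 1 and 3, both on slide 2, by a median of 0.52 for genes above the 75th percentile and below them by 0.86 for the dimmer genes (median -0.86). Replicates 1 and 3 also had the lowest 75th percentiles of raw intensity, 281 and 218. With replicate 4 left out, 11522 genes were called (6750 higher in post-sepsis M0 and 4772 higher in M1). Slides 2 and 3 held both groups, and 9094 of the 9103 called genes kept their sign in the within-slide difference of means on both. These differences reuse arrays that gave the calls, so they are not a separate check. On slide 2 the only M1 array was replicate 1. Arrays are grouped here by the labels of their scanner files; of the 8 columns with these labels in the deposited value table, 7 followed another sample's scanner file, and which assignment is right was not settled. The M1 label was checked with Nos2, given below, while no gene was used to check the label of post-sepsis against that of naive M0.

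The CCR2 ligands were above naive M0 in both post-sepsis M0 and M1. Their means in the M2 cultures lay above the naive means too, so a level above naive M0 was not particular to M1. All 3 ligands stood more than 4 log2 units above naive M0 in post-sepsis M0, where no stimulus had been given. Ccl2 was higher still in M1, Ccl7 missed the threshold between the groups, and Ccl12 and the receptor gene Ccr2 were higher in post-sepsis M0. Among these 4 genes 2 were higher in post-sepsis M0 and 1 in M1.

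Ccl2 (probe at chr11:81850650-81850709, build mm9), the main monocyte attractant, read 7.18, 7.90, 6.95 and 7.91 on the post-sepsis arrays and 8.91, 8.85, 8.85 and 9.19 on the M1 arrays. The groups did not overlap, and the change was -1.46 ± 0.28 (SE, n = 4 and 4), 2.76-fold higher in M1, with a limma adjusted p of 0.000602. In post-sepsis against naive M0 10.7% of genes were called, and in M1 against naive M0 26.8%. On the naive M0 arrays Ccl2 read 3.56, 3.21, 2.82 and 3.30, so that the differences from naive M0 were 4.26 for post-sepsis M0 (19.2-fold; limma adjusted p 1.15e-07) and 5.72 for M1 (limma adjusted p 3.99e-10). These differences from naive M0, here and below, share the 4 naive arrays and are given side by side. The M2 cultures read 5.93, 5.08, 6.19 and 5.93, between the naive and the post-sepsis arrays.

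Ccl7 (chr11:81860656-81860715, mm9), which attracts monocytes through the same receptor, read 5.58, 6.34, 5.44 and 6.48 on the post-sepsis arrays and 6.40, 6.34, 6.54 and 6.65 on the M1 arrays. The groups overlapped, with post-sepsis replicates 2 and 4 at the M1 level and replicates 1 and 3 below it. The change of -0.52 ± 0.27 had a 95% interval of -1.09 to 0.04 and a limma adjusted p of 0.158. It was -0.90 within slide 2 and -0.18 within slide 3, and it passed the test after quantile normalization (-0.85, limma adjusted p 0.00279). Against naive M0, at a mean of 1.42 ± 0.35 (SD, n = 4), Ccl7 was higher by 4.54 in post-sepsis M0 and by 5.06 in M1. Its M2 mean was 4.94.

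Ccl12 (chr11:81916764-81916823, mm9), the third mouse CCR2 ligand, read 2.78, 3.31, 2.96 and 3.20 on the post-sepsis arrays and 1.45, 1.16, 1.27 and 1.47 on the M1 arrays. All post-sepsis values lay above all M1 values, with a change of 1.73 ± 0.24 (3.31-fold; limma adjusted p 2.79e-05). It was higher than in naive M0 by 4.22 in post-sepsis M0 and by 2.50 in M1, and M1 differed from M2 by -0.43 (limma adjusted p 0.2). The M2 arrays, at 1.81, 1.61, 1.83 and 1.82, lay above every M1 array and below every post-sepsis array.

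Ccr2 itself (chr9:124022948-124023007, mm9) read -0.12, 0.96, -0.34 and 0.85 in post-sepsis M0 and -4.15, -3.64, -2.69 and -3.50 in M1, where 3 of 4 arrays were well above background. The change of 3.83 ± 0.33 (14.2-fold; limma adjusted p 2.08e-07) came with a difference of 0.27 between post-sepsis and naive M0 (limma adjusted p 0.796) and of -3.56 between M1 and naive M0. In post-sepsis M0 the ligands were thus above naive M0 and the receptor was not called, and in M1 the receptor was lower.

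**Figure D1:**
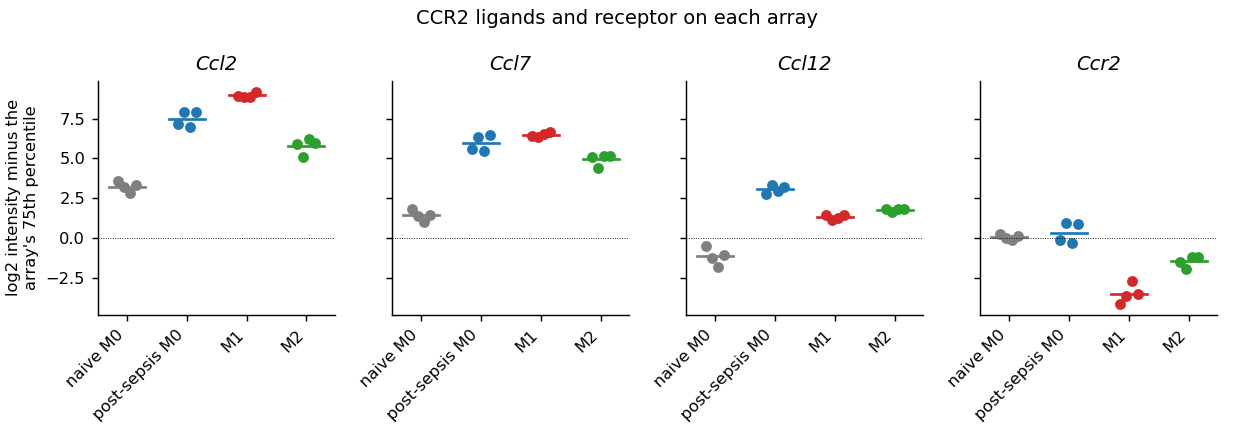
Levels of the 3 CCR2 ligands and of Ccr2 on each array (points; log2 intensity less the array's 75th percentile, dotted line at 0) in naive M0, post-sepsis M0, M1 and M2 cultures, with the group mean as a bar. For all 3 ligands the post-sepsis points lie above every naive point, and the M1 and M2 means lie above the naive mean. For Ccr2 the M1 points, from -4.15 to -2.69, are the lowest.

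Most other chemokines called were higher in M1. Of 12 tested CC chemokines and receptors 3 were higher in post-sepsis M0 and 7 in M1, and of 11 tested CXC and CX3C chemokines and receptors 1 and 6. Ccl5, an attractant of T cells and monocytes, read -0.36, 0.03, -0.36 and -0.14 in post-sepsis M0 and 9.84, 9.83, 10.03 and 10.08 in M1, a change of -10.15 ± 0.19 (limma adjusted p 2.59e-14). It was also 7.41 log2 units lower in post-sepsis than in naive M0 (difference -7.41; limma adjusted p 5.06e-12), so Ccl5 and Ccl2 lay on opposite sides of naive M0 in the same cultures. Ccl8, another monocyte attractant, was higher in M1 by 6.97 log2 units (post-sepsis minus M1 -6.97 ± 0.23) and lower in post-sepsis than in naive M0 by 2.62 (difference -2.62).

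The neutrophil attractant Cxcl3 was well above background on no post-sepsis array and on all 4 M1 arrays, at least 364-fold higher in M1. Bounds of this kind set the M1 mean against the lowest signals well above background on the post-sepsis arrays. Cxcl9, which attracts T cells through CXCR3, changed by -6.88 ± 0.38 with all 8 arrays well above background; a second probe was well above background on 0 of 4 post-sepsis and all 4 M1 arrays. The Cxcl11 probe used here read 8.95 to 9.77 on all 8 arrays and its second probe gave -0.77; the first did not pass (0.18 ± 0.24). In the other direction, Ccl6 (6.08 ± 0.21) and Ccl9 (4.20 ± 0.21), both made constitutively by myeloid cells, were higher in post-sepsis M0. Against naive M0, Ccl6 was not called in post-sepsis M0 (0.15, limma adjusted p 0.826) and Ccl9 was higher (0.86, limma adjusted p 0.0133), while in M1 both were below it. The fractalkine receptor gene Cx3cr1, a marker of non-classical monocytes, was 4.69 ± 0.32 higher in post-sepsis M0, with 1 of 4 M1 arrays well above background, at -0.69 from naive M0 (limma adjusted p 0.244).

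Part of the hypoxia genes were higher in post-sepsis than in naive M0, and most were higher still in M1. Of 24 listed HIF targets 21 could be tested, and 14 were higher in M1, 2 were higher in post-sepsis M0 and 5 did not pass. The median change was -1.40, against 0.16 for all genes. In 16 of the 21 the groups did not overlap (29.5% of all genes). Ndufa4l2, Mxi1 and Car12 were not well above background on 3 arrays of either group. Against naive M0, 9 of the 21 were higher in post-sepsis M0 and the other 12 were not called by limma in either direction (5.39% of all 29674 genes tested there were higher and 5.36% lower). In M1 against naive M0, 17 were higher and 2 lower (12.5% and 14.3% of 29544 genes).

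The group means of M1 and M2 share no array with those of post-sepsis and naive M0. Both comparisons come from the fit over all 4 groups, with the same estimate of each gene's spread. Their calls are therefore not independent. In M1 against M2, 30.0% of 28725 genes were called, 15.4% higher and 14.6% lower, and among the 21 targets 18 were higher and 2 lower in M1. Of these 18 targets 9 were also higher in post-sepsis than in naive M0, namely Mgarp, Ak4, Bnip3, Higd1a, Pdk1, Adm, P4ha2, Ddit4 and Ankrd37. The other 9 were not called there.

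Of 8 tested pathway regulators 4 were higher in M1 and the other 4 not called (median -0.96). Hif1a, the alpha subunit, read 0.40, 1.57, 0.18 and 1.72 in post-sepsis M0 and 3.18, 3.38, 3.37 and 3.58 in M1. The groups did not overlap (-2.41 ± 0.34; limma adjusted p 3.53e-05), and post-sepsis differed from naive M0 by -0.35 (limma adjusted p 0.705), so no rise of Hif1a mRNA over naive M0 was called. Its partner Arnt changed by -0.39 ± 0.21 (limma adjusted p 0.182), with an interval within 2-fold.

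For Epas1, which encodes HIF-2 alpha, the brightest probe changed by 0.31 ± 0.23 (limma adjusted p 0.328), with values of 3.22 to 4.35 in post-sepsis M0 and 3.28 to 3.62 in M1. Its other probes disagreed: one gave 6.07, with means of 1.70 against -4.37 and 0 of 4 M1 arrays well above background, and one gave 1.86. On the mean of all its probes Epas1 was 2.75 higher in post-sepsis M0 (limma adjusted p 1.19e-07). In M2 these other probes read 2.44 and -1.73.

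Among the oxygen sensors, Egln3, a prolyl hydroxylase that is itself a HIF target, was 0.63, 1.21, 0.15 and 1.01 in post-sepsis M0 and 3.04, 2.95, 2.77 and 3.07 in M1, against -2.44 ± 0.16 (SD, n = 4) in naive M0. It lay between both in every post-sepsis array: -2.21 ± 0.30 against M1 (limma adjusted p 3.1e-05) and 3.18 above naive M0 (limma adjusted p 5.4e-06). Vhl, the ubiquitin ligase subunit that binds hydroxylated HIF, was lower in post-sepsis M0 than in M1 (-1.43 ± 0.21). Egln1 passed only narrowly (-1.07 ± 0.39; limma adjusted p 0.047; 3 of 4 post-sepsis arrays well above background) and lost the call in most alternative fits, Egln2 stayed within 2-fold (0.11 ± 0.19), and Hif1an changed by -0.86 ± 0.42 (limma adjusted p 0.144).

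The promoters of Mgarp, Ak4, Egln3 and Ankrd37 are printed because of the size of their differences from naive M0 in post-sepsis M0. On the probes used, these were the largest among hypoxia members with the HIF core motif ACGTG upstream. Each run is the 250 bases before the annotated start on the gene's strand, from RefSeq, build GRCm38.p6, and the capitals mark ACGTG or its reverse complement CACGT (overlapping matches, as in CACGTG of Ak4, join to 1 run). The Ak4 promoter is 1 of 4 listed for this gene and was taken because none of them held more matches.

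Mgarp, chr3:51396548-51396797, minus strand: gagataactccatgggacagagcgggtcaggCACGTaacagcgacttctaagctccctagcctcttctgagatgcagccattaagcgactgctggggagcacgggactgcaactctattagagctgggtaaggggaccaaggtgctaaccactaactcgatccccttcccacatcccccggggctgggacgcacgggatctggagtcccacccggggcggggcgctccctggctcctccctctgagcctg
Ak4, chr4:101419453-101419702, plus strand: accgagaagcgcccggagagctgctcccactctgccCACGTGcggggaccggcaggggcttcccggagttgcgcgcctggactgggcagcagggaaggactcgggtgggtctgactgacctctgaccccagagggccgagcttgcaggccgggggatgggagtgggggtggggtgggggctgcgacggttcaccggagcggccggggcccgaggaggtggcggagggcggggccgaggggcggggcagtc
Egln3, chr12:54203875-54204124, minus strand: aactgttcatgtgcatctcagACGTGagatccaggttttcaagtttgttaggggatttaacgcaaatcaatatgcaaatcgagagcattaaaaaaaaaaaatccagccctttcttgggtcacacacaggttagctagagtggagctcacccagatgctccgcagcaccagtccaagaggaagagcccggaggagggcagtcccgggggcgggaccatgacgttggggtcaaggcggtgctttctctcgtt
Ankrd37, chr8:45999851-46000100, minus strand: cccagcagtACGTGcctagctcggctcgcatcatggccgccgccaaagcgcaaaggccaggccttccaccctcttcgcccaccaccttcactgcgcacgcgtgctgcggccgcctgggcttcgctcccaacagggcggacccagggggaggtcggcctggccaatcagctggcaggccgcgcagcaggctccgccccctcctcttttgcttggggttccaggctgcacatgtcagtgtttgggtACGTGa

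The RefSeq promoters held 18 HIF targets, and 12 (66.7%) had ACGTG on either strand in this window, as did 4 of 7 regulators. Among all 27025 genes 18.5% had it, and the share was 50.0% for glycolysis (9 of 18) and 44.4% for oxidative phosphorylation (4 of 9). A gene counted if any of its promoters in the table held the motif. A match describes these letters and is not a bound site.

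Among mitochondrial targets several lay between naive M0 and M1. Mgarp, a mitochondrial protein induced by HIF, was -0.78, -0.34, -1.27 and -0.03 in post-sepsis M0 and 3.14, 3.12, 3.23 and 3.57 in M1, while no naive M0 array was well above background. The change was -3.87 ± 0.25 (14.7-fold higher in M1; limma adjusted p 5.68e-09), and against naive M0 Mgarp was at least 13.4-fold higher in post-sepsis M0 and at least 196-fold in M1. Ak4, a mitochondrial adenylate kinase, read 1.17, 1.92, 0.93 and 1.75 in post-sepsis M0, 4.10, 3.96, 3.99 and 4.35 in M1 and -3.43 ± 0.41 (SD, n = 4) in naive M0.

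On the probe used, every post-sepsis value of Ak4 lay far from both other groups. The difference was 4.88 from naive M0 (limma adjusted p 1.32e-08) and -2.66 ± 0.25 from M1 (limma adjusted p 4.5e-07). A second, dimmer Ak4 probe gave -1.32 against M1. Its means were -2.59 in post-sepsis M0, -1.27 in M1 and -3.13 in naive M0, so the rise over naive M0 was much smaller there. Bnip3, which marks mitochondria for autophagy, was 4.00, 4.76, 3.91 and 4.75 in post-sepsis M0 and 7.53, 7.38, 7.44 and 7.68 in M1; it was 1.27 above naive M0 in post-sepsis M0 and 4.42 in M1. Its relative Bnip3l (-1.81 ± 0.22) was higher in M1 and at -0.27 from naive M0 in post-sepsis M0 (limma adjusted p 0.623). Higd1a, which protects the respiratory chain under low oxygen, was higher in M1 (-1.67 ± 0.19) and 1.30 above naive M0 in post-sepsis M0.

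Pdk1 was the 1 tested mitochondrial target that was not called against M1, and its interval did not lie within 2-fold. This kinase limits the oxidation of pyruvate in the mitochondria, and its gene read 1.56, 2.54, 1.49 and 2.46 in post-sepsis M0 and 1.58, 1.51, 1.32 and 1.58 in M1. Post-sepsis replicates 2 and 4 lay above all M1 arrays and replicates 1 and 3 among them (0.51 ± 0.26, interval -0.04 to 1.07, limma adjusted p 0.156; -0.05 within slide 2 and 1.04 within slide 3). After quantile normalization it was called higher in post-sepsis M0 (0.57, limma adjusted p 0.0402). It was above naive M0 by 1.91 in post-sepsis M0 and by 1.40 in M1.

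The secreted targets split. Vegfa, the endothelial growth factor, read 2.19, 2.97, 1.81 and 2.70 in post-sepsis M0 and 4.93, 4.66, 4.44 and 4.95 in M1 (-2.33 ± 0.26; limma adjusted p 3.51e-06), and differed by -0.73 from naive M0 in post-sepsis M0 (limma adjusted p 0.0973). The vasodilator peptide gene Adm was higher in M1 (-1.04 ± 0.30; limma adjusted p 0.0134) and 1.91 above naive M0 in post-sepsis M0, with 2 of 4 naive arrays well above background. Angptl4, an inhibitor of lipoprotein lipase, was higher in post-sepsis M0 (1.26 ± 0.27; limma adjusted p 0.00166), and in M1 it was 2.04 log2 units below naive M0 (difference -2.04).

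Of the collagen-modifying enzymes, the prolyl hydroxylase subunit P4ha2 read 2.06, 2.59, 1.79 and 2.24 in post-sepsis M0 and 4.51, 4.06, 4.06 and 4.30 in M1, with 2.17 and 4.24 above naive M0. P4ha1 (0.03 ± 0.25) and Plod2 (-0.20 ± 0.32) had intervals within 2-fold of M1 but neither was called against naive M0 in post-sepsis M0 (0.58 and 0.98; limma adjusted p 0.197 and 0.0705). Ankrd37, an ankyrin-repeat protein, was 1.60, 2.27, 1.42 and 2.17 in post-sepsis M0 and 3.21, 3.18, 3.22 and 3.45 in M1, 2.80 and 4.20 above naive M0. Ddit4, an inhibitor of mTORC1, was -1.38 ± 0.24 from M1 and 2.37 above naive M0.

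The histone demethylase genes Kdm3a (-1.50 ± 0.24) and Kdm4b (-1.11 ± 0.20) were higher in M1, and in post-sepsis M0 neither passed against naive M0 (-0.33 and 0.12). The oxidase gene Ero1a was higher in M1 (-2.73 ± 0.42). Ndrg1 (-0.60 ± 0.23; limma adjusted p 0.0642) and Car9 (0.22 ± 0.24; limma adjusted p 0.499) did not pass.

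The 2 isoforms of the phosphofructokinase activator parted most. Pfkfb3, the isoform that speeds glycolysis, read 2.25, 2.87, 1.97 and 2.41 in post-sepsis M0 and 6.83, 6.50, 6.50 and 6.68 in M1, a change of -4.25 ± 0.23 (19.1-fold higher in M1; limma adjusted p 8.85e-10). Its post-sepsis level lay at -0.11 from naive M0 (limma adjusted p 0.903). Pfkfb4 was higher in post-sepsis M0 (0.88 ± 0.25; limma adjusted p 0.0141), with 0.12 within slide 2 and 1.27 within slide 3.

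**Figure D2:**
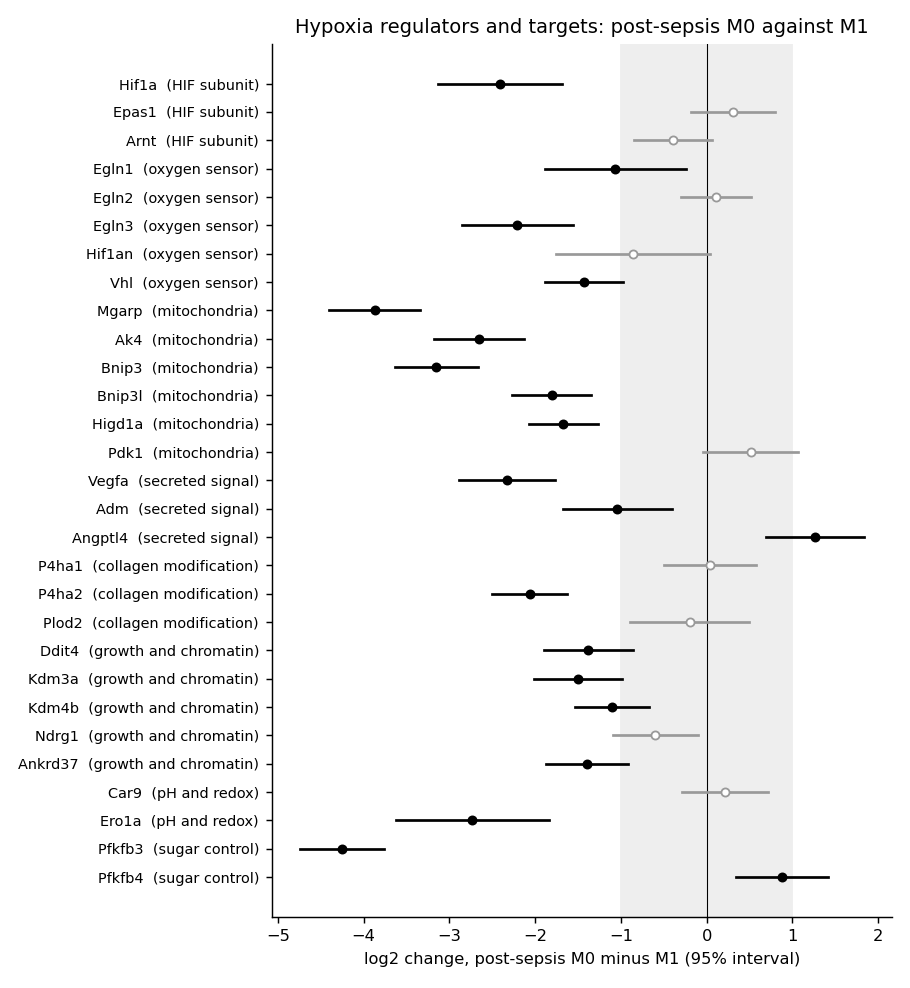
Change of each tested hypoxia regulator and target, post-sepsis M0 minus M1 on the log2 scale (point) with its 95% interval (line), ordered by role; black marks an adjusted p under 0.05, grey open points the rest, and the shaded band is 2-fold either way. Most targets lie left of the band, down to -4.25 for Pfkfb3, and Angptl4 and Pfkfb4 are the called targets on the right.

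Glycolysis genes were mostly above naive M0 in post-sepsis M0. Of 19 transporters and enzymes 8 were higher in M1 and 4 in post-sepsis M0, and 6 had intervals within 2-fold, a share near the 25.8% over all genes. The median change was -0.43, and in 13 the groups did not overlap (29.5% of all genes). Against naive M0, 13 were higher and 1 lower in post-sepsis M0 (5.39% and 5.36% of all genes). In M1, 14 were higher and 3 lower than in naive M0 (12.5% and 14.3% of all genes). In M1 against M2 13 of the 19 were higher, and 11 of these were also higher in post-sepsis than in naive M0. These calls rest on the same estimate of spread and are not independent.

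The glucose transporter genes went opposite ways. Slc2a1 (GLUT1) read 3.79, 4.48, 3.33 and 4.21 in post-sepsis M0 and 6.90, 6.80, 6.79 and 6.95 in M1 (-2.91 ± 0.22; 7.50-fold higher in M1; limma adjusted p 3.39e-08), and was 1.31 above naive M0 in post-sepsis M0 against 4.21 in M1. Slc2a3 (GLUT3) was higher in post-sepsis M0 (1.68 ± 0.24; limma adjusted p 4.2e-05).

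In the upper steps, Hk2, the inducible hexokinase, was higher in M1 (-1.82 ± 0.24) and at 0.34 from naive M0 in post-sepsis M0 (limma adjusted p 0.533). For Hk1 the brightest probe was higher in post-sepsis M0 (1.26 ± 0.16; limma adjusted p 1.14e-05), while its other probes gave -1.56 and -1.22, so the direction depends on the probe. The phosphofructokinase gene Pfkl was higher in M1 (-1.22 ± 0.27), with 1.83 above naive M0 in post-sepsis M0. The probes of Pfkp disagreed (-1.11 for the brighter and 1.10 for the dimmer). Aldoc was higher in post-sepsis M0 (1.28 ± 0.21; limma adjusted p 0.00019), reading 5.19, 5.88, 5.05 and 5.73 against 4.27, 4.10, 4.03 and 4.34, with all post-sepsis arrays above all M1 arrays. Aldoa (0.31 ± 0.20) and Gpi1 (-0.38 ± 0.20) stayed within 2-fold.

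Among genes of the lower steps and lactate production more of the changes were small. Ldha, which makes lactate, read 8.80, 9.06, 8.88 and 8.86 in post-sepsis M0 and 9.34, 9.20, 9.35 and 9.41 in M1, against 7.54 ± 0.23 (SD, n = 4) in naive M0. The post-sepsis values lay just below the M1 values without overlap, and the change of -0.43 ± 0.16 (limma adjusted p 0.053) had an interval of -0.77 to -0.09; several alternative fits called it. Against naive M0 it was higher by 1.36 (limma adjusted p 3.59e-05) in post-sepsis M0 and by 1.79 in M1. These values are from the brightest Ldha probe. The other, dimmer probes gave -1.03 and -1.29 against M1, so the size of the Ldha change depends on the probe.

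Pkm, the last ATP-forming enzyme, overlapped between the groups, at 6.81, 7.54, 6.85 and 7.06 against 7.69, 7.16, 7.40 and 7.34 (-0.33 ± 0.25; limma adjusted p 0.324), and was 1.71 and 2.04 above naive M0. Gapdh changed by -0.12 ± 0.15 and Eno1 by -0.46 ± 0.21, both within 2-fold on the probe used. The other Gapdh probes gave -0.32 to -1.17. Both genes have near-identical copies in the genome, so their probes may read more than 1 transcript. Tpi1 was higher in M1 (-1.05 ± 0.25), and Pgk1 (-0.67 ± 0.23; limma adjusted p 0.0381) and Pgam1 (-0.61 ± 0.22; limma adjusted p 0.0459) passed narrowly and lost the call in several alternative fits. Eno2, the neuronal enolase, was higher in post-sepsis M0 than in M1 (0.68 ± 0.24; limma adjusted p 0.0421) and below naive M0 in both groups (-1.06 and -1.74).

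Of the 2 lactate transporter genes 1 was higher in M1. Slc16a3 (MCT4), the exporter, read 5.76, 5.94, 5.75 and 5.60 in post-sepsis M0 and 7.97, 7.73, 7.52 and 7.82 in M1 (-1.99 ± 0.21; limma adjusted p 1.82e-06), against 3.21 ± 0.42 (SD, n = 4) in naive M0. All post-sepsis arrays lay between the naive and the M1 arrays. Slc16a1 (MCT1) did not pass (0.53 ± 0.34; limma adjusted p 0.26).

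**Figure D3:**
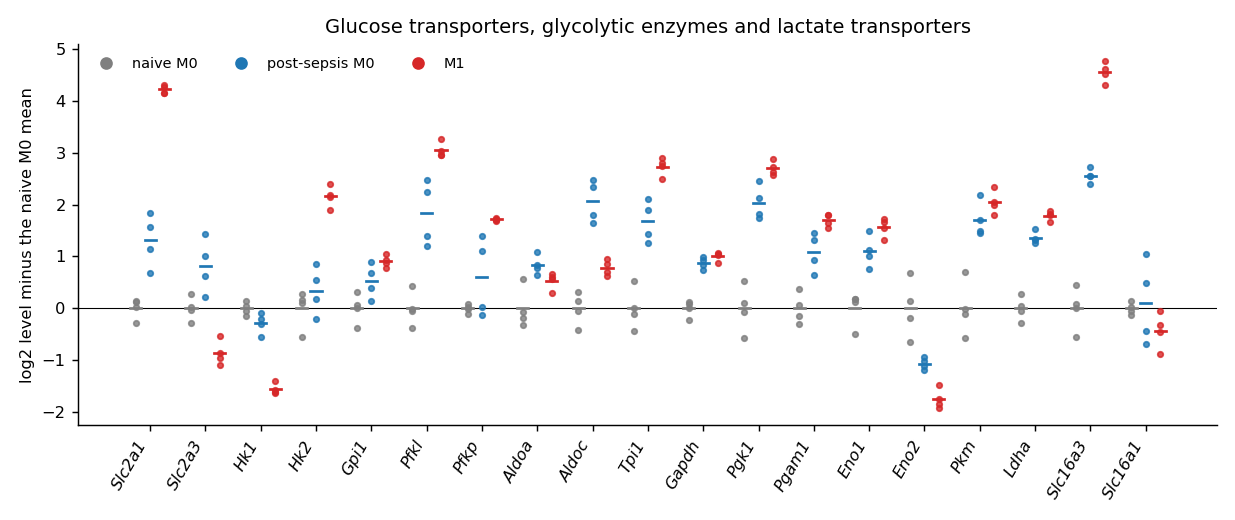
Level of each glycolysis gene on the naive M0, post-sepsis M0 and M1 arrays (points, 4 per group, with the mean as a bar), as the log2 difference from the naive M0 mean. Post-sepsis points sit near the M1 points for Pkm, Gapdh and Eno1 and below them for Slc2a1, where M1 is 4.21 above naive M0, and Slc16a3.

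The inflammatory genes of the M1 state were higher in M1. Nos2, the inducible nitric oxide synthase used here to check the M1 label, read 9.08, 8.75, 8.70 and 8.99 on the M1 arrays and 0.71, 0.46, 0.48 and 0.39 on the post-sepsis arrays, where it lay at -0.03 from naive M0 (limma adjusted p 0.963). Of 12 listed M1 cytokines 9 could be tested, 7 were higher in M1 and the other 2 were not called (median -4.05). All 9 were well above background on every M1 array, but only 4 on every post-sepsis array. Part of them thus passed the filter only through M1, where they were high, so the count and median lean towards M1. Il6 was well above background on 0 of 4 post-sepsis and all 4 M1 arrays, at least 784-fold higher in M1, and Inhba, which encodes activin A, was at least 1329-fold higher. Il12b, the other label marker, was well above background on 1 of 4 M1 arrays. Il27 (-0.16 ± 0.26) and Il18 (-0.24 ± 0.26) did not pass and had intervals within 2-fold.

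Of 22 M1 effector and surface genes 21 were higher in M1, with a median of -5.19. All 22 were well above background on every M1 array and 15 on every post-sepsis array, so here too some passed the filter only through M1. Cfb, complement factor B, changed by -11.35 ± 0.30, with 2 of 4 post-sepsis arrays well above background, and the cyclooxygenase gene Ptgs2 was at least 1272-fold higher in M1, while the co-stimulatory gene Cd80 did not pass (-0.14 ± 0.30). Against naive M0, 9 of 19 were lower in post-sepsis M0 and the other 10 were not called. All 12 NF-kB subunits and feedback genes were higher in M1, from -0.91 for Nfkb1 (limma adjusted p 0.0481) to -4.63 for Nfkbie and -4.62 for the RNase gene Zc3h12a. Of these 12, 7 were below naive M0 in post-sepsis M0 and the other 5 not called.

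Interferon genes lay on opposite sides of naive M0 in the 2 groups. All 22 type I interferon response genes were higher in M1 than in post-sepsis M0 (median -4.21). In post-sepsis M0 20 of the 22 were below naive M0 (median -2.34), and in M1 18 were above it. Their mean on an array was 0.56, 1.11, 0.52 and 1.04 in post-sepsis M0 and 5.14, 4.99, 4.87 and 5.15 in M1. Irf7, the transcription factor that amplifies the response, read -1.22, -0.90, -1.92 and -0.62 against 5.58, 5.30, 5.69 and 5.36 (-6.65 ± 0.24), 3.24 log2 units below and 3.41 above naive M0 (differences -3.24 and 3.41). Oasl1, an antiviral protein, changed most in the list (-7.50 ± 0.21), and Irf9 least (-1.47 ± 0.20).

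Of 11 interferon-gamma-induced GTPases, which attack pathogen vacuoles, 10 were higher in M1 (median -4.18), and 8 were below naive M0 in post-sepsis M0. Gbp2 read 0.40, 0.80, 0.14 and 0.47 in post-sepsis M0 and 9.16, 8.97, 9.01 and 9.13 in M1 (-8.62 ± 0.21; limma adjusted p 1.98e-13), and Gbp4 was at least 1193-fold higher in M1. Gbp5 missed the call on its brighter probe (-0.87 ± 0.58) while its second probe gave -7.64. Of this list 8 genes had a RefSeq promoter, and 8 of the 8 held the interferon-stimulated response element (GAAA, any 2 bases, GAAA) or its reverse complement in the 250 bases before the start, against 3.46% of all genes and 43.8% of the type I list (7 of 16). The promoters of Gbp2 and of Gbp5, whose probes disagreed, are shown with the element in capitals (build GRCm38.p6, RefSeq).

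Gbp2, chr3:142620413-142620662, plus strand: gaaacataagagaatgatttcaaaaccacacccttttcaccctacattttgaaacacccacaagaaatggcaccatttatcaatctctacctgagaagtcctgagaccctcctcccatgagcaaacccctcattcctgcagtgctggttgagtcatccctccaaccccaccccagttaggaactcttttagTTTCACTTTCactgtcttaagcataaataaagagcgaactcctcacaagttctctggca
Gbp5, chr3:142496684-142496933, plus strand: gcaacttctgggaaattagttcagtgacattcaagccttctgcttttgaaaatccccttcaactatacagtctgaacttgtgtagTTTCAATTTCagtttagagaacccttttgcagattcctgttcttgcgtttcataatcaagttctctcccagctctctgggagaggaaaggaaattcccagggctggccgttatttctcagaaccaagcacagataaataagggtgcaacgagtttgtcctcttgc

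Transcripts of MHC genes were higher in M1 as well. All 7 MHC class II genes (median -3.12) and all 11 class I genes (median -2.13) were called. Cd74, the invariant chain, changed by -3.72 ± 0.26 and H2-Ab1 by -3.46 ± 0.23, both near naive M0 in post-sepsis M0 (0.09 and 0.63; limma adjusted p 0.933 and 0.109). The peptide transporter gene Tap1 changed by -4.53 ± 0.33 and the class I transactivator gene Nlrc5 by -3.60 ± 0.34, the latter below naive M0 in post-sepsis M0 (-1.63).

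**Figure D4:**
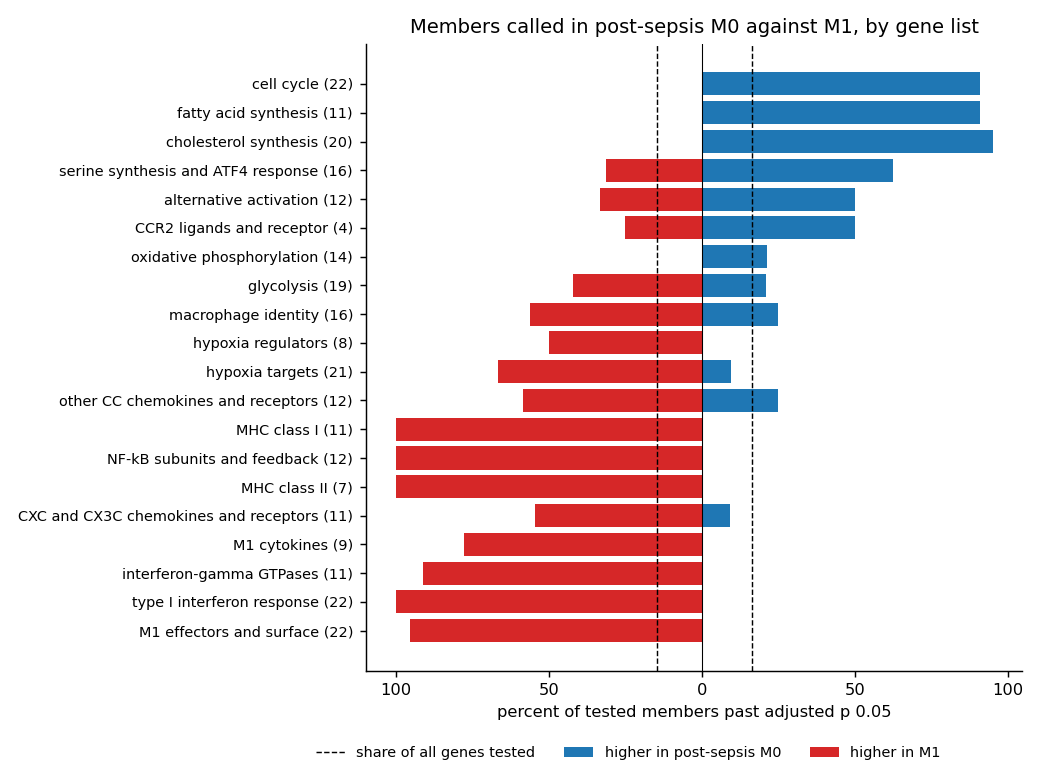
Percent of tested members (number in parentheses) of each gene list that passed an adjusted p of 0.05, to the right when higher in post-sepsis M0 and to the left when higher in M1, with the shares over all 29448 genes as dashed lines (16.4% and 14.6%). Lists are ordered by their median change, from M1 effectors (-5.19) to cell cycle (4.55).

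Proliferation genes were higher in post-sepsis M0. Of 22 cell cycle genes 20 were higher in post-sepsis M0 (median 4.55), and 20 were above naive M0 in post-sepsis M0 and 20 below it in M1. Ccna2, cyclin A2, read 4.02, 4.65, 3.76 and 4.38 in post-sepsis M0 and -4.53, -4.20, -3.04 and -3.69 in M1, 268-fold higher with 3 of 4 M1 arrays well above background (8.07 ± 0.33; limma adjusted p 4.18e-11), and the thymidine kinase gene Tk1 changed by 7.51 ± 0.23. Plk1, a mitotic kinase, was 6.33 ± 0.24 higher. Ccne1, which encodes cyclin E1, went the other way without passing (-0.62 ± 0.24; limma adjusted p 0.0583) and was above naive M0 in both groups (1.76 and 2.38). In bulk RNA, fewer dividing cells and less of these transcripts per cell cannot be told apart.

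Transcripts of lipid synthesis genes were higher in post-sepsis M0 too. Of 20 cholesterol synthesis genes 19 were higher than in M1 (median 2.89), and 19 were above naive M0. Idi1, an isomerase of the isoprenoid branch, changed by 5.40 ± 0.27 and Mvd, a decarboxylase of the same branch, by 1.54 ± 0.24. The regulator gene Srebf2 did not pass (0.52 ± 0.34; limma adjusted p 0.257).

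Of 11 fatty acid synthesis genes 10 were higher in post-sepsis M0 than in M1 and 9 than in naive M0. The desaturase genes Scd1 and Fads2 were well above background on all 4 post-sepsis and 0 of 4 M1 arrays, at least 59.3-fold and 36.4-fold higher. Of 16 serine synthesis and ATF4 response genes 10 were higher in post-sepsis M0 and 5 in M1: the serine enzymes Psat1 (5.02 ± 0.23) and Phgdh (4.15 ± 0.36) against the cystine transporter gene Slc7a11 (-6.45 ± 0.52; 1 of 4 post-sepsis arrays well above background) and the stress factor gene Ddit3 (-2.99 ± 0.26). For oxidative phosphorylation 3 of 14 genes were higher in post-sepsis M0, a share near the 16.4% over all genes. In 10 of the 14 the interval lay within 2-fold, against 25.8% of all genes.

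**Figure D5:**
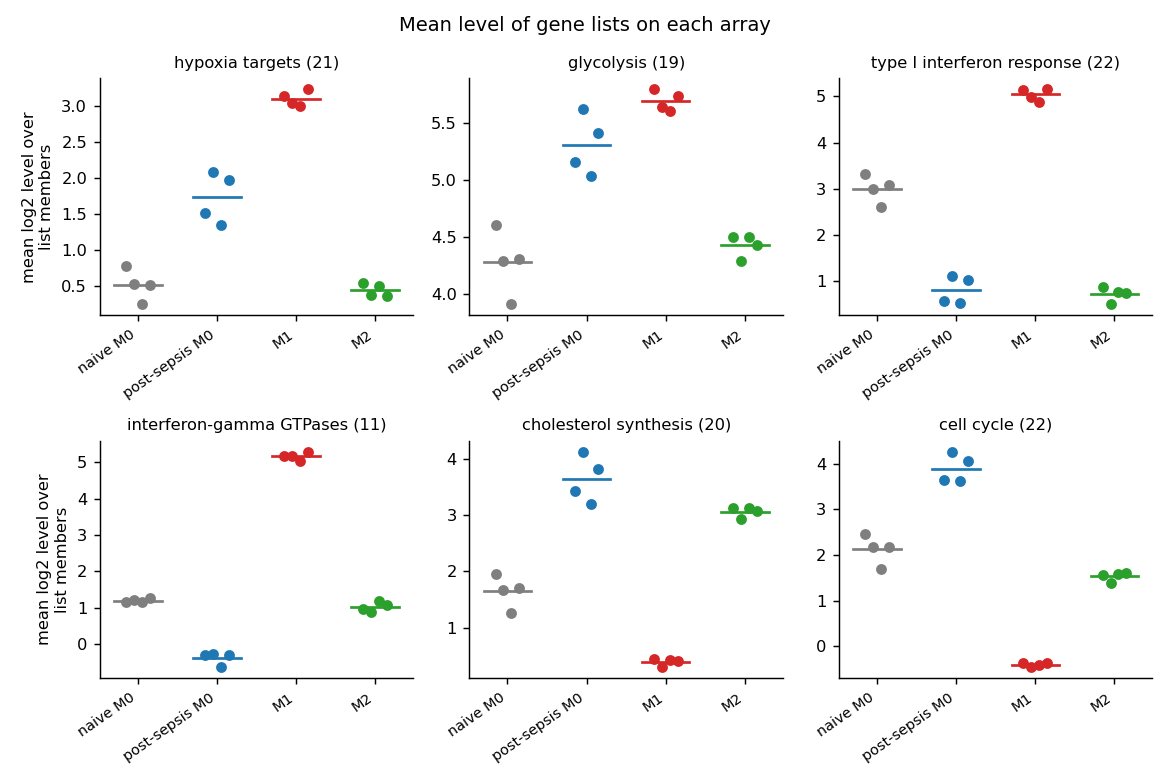
Mean log2 level over the tested members of 6 gene lists (number of genes in parentheses) on each array of the 4 culture groups, with group means as bars; each panel has its own axis. Post-sepsis arrays lie between naive M0 and M1 for hypoxia targets, below naive M0 for type I interferon genes (0.52 to 1.11) and above all other groups for cell cycle genes.

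Alternative activation genes split by gene. Of 12 tested 6 were higher in post-sepsis M0 and 4 in M1. The mannose receptor gene Mrc1 read 6.10, 6.77, 5.93 and 6.52 in post-sepsis M0 and was well above background on 0 of 4 M1 arrays, at least 1522-fold higher. The lipid-sensing receptor gene Pparg was higher in post-sepsis M0 (4.26 ± 0.23), and the transglutaminase gene Tgm2 was higher in M1 (-5.55 ± 0.24). The naive M0 means were 4.58 for Mrc1, 4.21 for Pparg and 4.69 for Tgm2, against post-sepsis means of 6.33, 3.17 and 3.12. Retnla, a secreted M2 marker, was well above background on 1 of 4 post-sepsis arrays, at -5.69, -6.61, -2.04 and -6.13 against -0.25, -0.25, -0.30 and 0.155 in M1.

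Over all genes measured in both groups, those with the largest changes towards post-sepsis M0 included Cbr2 (8.93), a carbonyl reductase of resident macrophages, the histone gene H1f5 (8.08), Ccna2, Tk1, Ccnb2 (7.27), the coagulation factor gene F13a1 (7.25), Cdca3 (6.99), Anln (6.65) and Stmn1 (6.37). Towards M1 they were Ccl5, Serpina3g (-9.72), the acute-phase gene Saa3 (-9.43), the formyl peptide receptor genes Fpr1 (-9.32) and Fpr2 (-9.22), Gbp11 (-9.05), AW112010 (-8.92), Procr (-8.67), Thbs1 (-8.62) and Gbp2. Among these, Cbr2, Ccna2 and F13a1 in M1 and Fpr2 in post-sepsis M0 were well above background on 3 of 4 arrays. With M1 below background, Pcp4l1, Nxpe5, Shcbp1 and Kif20a were at least 313, 300.1, 124 and 122-fold higher in post-sepsis M0. With post-sepsis M0 below background, Ubd, a ubiquitin-like modifier, was at least 4606-fold higher in M1.

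In post-sepsis against naive M0, 3.73% of genes were higher by at least 2-fold. Among those within 2-fold of M1 on the probe used, the 10 brightest were Ldha, Eno1, Eno1b, Mif, Ran, Prelid1, Tmsb10, Mt2, Pkm and Gm6498. For Ldha the other probes gave -1.03 and -1.29 against M1. Ldha, Eno1 and Pkm are glycolysis members, and Eno1b is a near copy of Eno1. Mif, a cytokine named for inhibiting macrophage migration, read 7.86, 8.26, 7.78 and 7.86 in post-sepsis M0 and 7.78, 7.50, 7.82 and 7.87 in M1, against 6.23 ± 0.42 (SD, n = 4) in naive M0. The groups overlapped (0.20 ± 0.21; interval -0.25 to 0.64), at 1.71 and 1.52 above naive M0. The metallothionein gene Mt2 (0.32 ± 0.21), the nuclear transport GTPase gene Ran (0.23 ± 0.19), the mitochondrial lipid carrier gene Prelid1 (0.14 ± 0.20) and the actin-binding gene Tmsb10 (0.01 ± 0.21) had intervals within 2-fold too. After quantile normalization Tmsb10 turned to -0.39 (limma adjusted p 0.0416).

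Over all genes, those higher in M1 than in M2 went both ways in post-sepsis M0. Of 2957 genes (10.3%) at least 2-fold higher in M1 than in M2, 2690 were tested in post-sepsis against naive M0, and 13.1% were higher and 17.3% lower there (5.39% and 5.36% over all genes). Of the 3047 genes (10.6%) at least 2-fold lower in M1 than in M2, 15.5% of the 2892 tested were higher and 9.82% lower in post-sepsis M0. A gene with a small spread is called more easily in both comparisons, since they use the same estimate of it. These shares are thus not independent of the choice of genes.

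The macrophage genes Adgre1, Csf1r, Cd68, Tyrobp and Cd14 were well above background on all 8 arrays. Of 16 macrophage identity genes 4 were higher in post-sepsis M0 and 9 in M1 (median -0.75), from 3.41 ± 0.30 for the transcription factor gene Maf to -3.22 ± 0.21 for Cebpb, and 11 were below naive M0 in post-sepsis M0. The lists for other cell types were checked beside them. Of 8 neutrophil markers 5 were higher in post-sepsis M0 and 2 in M1; the list mean was 0.49 to 1.29 on post-sepsis and -0.54 to -0.15 on M1 arrays, and against naive M0 6 were lower in each group. Ly6g was higher in M1 (-8.19 ± 0.36, with 2 of 4 post-sepsis arrays well above background) and S100a9 in post-sepsis M0 (6.27 ± 0.23). The granule genes Ltf and Ngp, named like these after their values were seen, were well above background on 0 of 4 M1 arrays and all 4 post-sepsis arrays.

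Of 7 T and NK cell markers 4 were tested and not called (2 were called without post-sepsis replicate 4), and Ncr1 was well above background on no array of either group. Of 5 B cell markers 1 was called, higher in post-sepsis M0 (2 without that replicate). Of 5 tested dendritic cell markers 2 were higher in post-sepsis M0 and 1 in M1, and of 4 tested fibroblast markers 1 was higher in M1. Over all genes 30.9% were called, and these lists are too short to set against that share. The tested erythroid and mast cell marker, 1 each, were not called. Xcr1 of the dendritic list, Pdgfra, Pdgfrb and Lum of the fibroblast list, Alas2 of the erythroid list and Mcpt8 and Fcer1a of the mast cell list were well above background on none of the 8 arrays. The part of these cells in the differences above was not tested.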

How the data were processed

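RNA of 24 mouse samples was hybridised to Agilent 1-colour arrays; the 16 marrow culture arrays (4 each of post-sepsis M0, M1, naive M0 and M2) were used here. Per the file headers, the deposited scanner files hold the processed intensity of each spot, background-subtracted and detrended within the array by Agilent Feature Extraction 10.7.3.1 (12.5 per the submitters' processing notes), with no scaling between arrays; probe positions are in mm9. Per the file headers, the files also hold flags for control spots, outlier spots and spots well above background. The authors also deposited a value table, taken to be log2 values with unstated scaling; 22 of its 24 columns (7 of the 8 used here) followed another sample's scanner file. Which of the 2 carries the right labels is not given in the sources used here; the scanner files were used, and no result comes from the table.

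Control spots and flagged outliers were dropped, spots of a probe averaged, and the log2 intensity reduced by each array's 75th percentile. Accessions were matched to RefSeq (27656 probes by accession, 3401 by symbol, 321 by synonym, 1049 kept, 23254 with none). The brightest probe over the 16 arrays stood for a gene. Genes whose probe exceeded background on 3 or more arrays of either compared group were tested with limma 3.58.1 (R 4.3.3; lmFit, contrasts.fit, eBayes) over the 4 groups without covariates, two-sided, with Benjamini-Hochberg adjustment over all genes tested. The script was tested on simulated data. Bounds ("at least N-fold") set the brighter group's mean against, per dim array, the higher of the lowest signal well above background and the probe's own.

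The members and the 27 gene lists were chosen with earlier results of these data known, so no list was tested as a set. Genes named are all members of the CCR2, hypoxia and glycolysis lists; the 10 largest changes each way with both groups above background; the 5 largest bounds each way; 2 at each end of every other list; and the 10 brightest genes within 2-fold of M1 that were at least 2-fold above naive M0. Some genes of these rules and lists are not reported here by name and stay in the counts. Motifs were searched on both strands in 250 bases before each RefSeq start. Alternatives: 8 arrays only, quantile normalization, normexp (offset 50), a stricter and no filter, the mean of probes, slide and replicate number as blocks, within-slide differences, and each replicate left out.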

Additional observations from a re-analysis of the deposited data

Results flagged for a closer look

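Each of 340 values (a named gene or a list mean within a group of 4 arrays) was checked for 1 array standing apart from the other 3, judged by Dixon's 95% critical value. Chance flags about 1 in 20. Among post-sepsis arrays, Mif was high on replicate 2 at 8.26, with the others at 7.78 to 7.86. On replicate 4, Ptgs2 read -5.03 against -5.72 to -5.70 and Slc7a11 read -2.78 against -5.90 to -5.43; both genes lay near or under background there. On replicate 3, Tyms read 2.49 against -0.77 to -0.29, and the mean of the interferon-gamma GTPases was -0.62 against -0.30 to -0.26. Among M1 arrays, replicate 4 was high for Ccl2 at 9.19 (others 8.85 to 8.91), Ankrd37 at 3.45 (others 3.18 to 3.22) and Retnla at 0.155 (others -0.30 to -0.25). Gapdh was low on M1 replicate 2 at 9.42 (others 9.57 to 9.60). The cause was not tested for any of these.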

How the results depend on the processing

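Of 143 named genes and members, 117 kept their direction and side of the threshold in every alternative fit. Of the 108 called, 100 were called in each. The within-slide differences are not fits and were counted apart. Within slide 2, 55 of the 143 lay further from the main change than the larger SD of the 2 groups, and within slide 3, 16 did. No called gene among them reversed its sign. The number of genes called ran from 7123 with only the 8 arrays to 10120 with quantile normalization (8320 with normexp, 9477 with slide as a block). With 1 replicate left out it ran from 7966 to 11522, genes at least 2-fold changed from 5921 to 8419 and genes within 2-fold from 6021 to 9452. Genes higher in post-sepsis M0 then ran from 4188 to 6750 and genes higher in M1 from 3555 to 4907. Genes within 2-fold numbered 16429 after normexp correction and 5768 with only the 8 arrays, against 7601. The cause was not tested. With only the 8 arrays, 1 hypoxia target was higher in post-sepsis M0 (against 2) and 5 glycolysis genes higher in M1 (against 8). With quantile normalization 2 of the CCR2 genes were higher in M1 (against 1). With 1 replicate left out, hypoxia targets higher in M1 ran from 14 to 15 and those higher in post-sepsis M0 stayed at 2, while glycolysis genes ran from 6 to 10 and from 3 to 4. Hk1 turned to -0.51 on the mean of its probes, which disagree, and Tmsb10 to -0.39 with quantile normalization; for Tmsb10 the cause was not tested.

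With the replicate number as a block 8903 genes were called, 8712 of them among the 9103. Same-numbered arrays of the 2 groups correlated at -0.39, -0.16, -0.32 and 0.20 in their deviations from the group means. Differently numbered arrays ran from -0.30 to 0.37. These values cannot tell whether same-numbered samples share an experiment or an animal, and no label gives either.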
